A study of Mus musculus with 4 samples.

Results

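The chemokine receptors described here are 9 genes that steer CD8 T cells between blood, lymphoid organs and tissues: Ccr9, Ccr7, Cxcr3, Ccr2, Cxcr6, Cxcr4, Cx3cr1, Cxcr5 and Ccr4. They were found by symbol, taking every probe outside the array's control spots whose gene name was on this list, which gave 13 of the 41174 probes and 9 of the 27376 named genes. CD8αβ+ intraepithelial lymphocytes (IELs), the T cells lodged between the epithelial cells of the gut, were compared with CD8αβ+ splenocytes (SPLs), the corresponding T cells of the spleen. Both groups came from unstimulated wild-type male mice aged 8 to 12 weeks, with 2 samples each. The wild-type mice of the study were of the C57BL/6 background, and the legend to the array experiment describes each sample as sorted from a pool of animals through a gate on CD45, CD3, CD8α, CD8β and TCRβ. RNA was hybridised to 1-colour Agilent arrays, 1 sample an array.

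Chemokine receptors are G protein-coupled receptors that turn a chemokine gradient into directed migration. Ccr9 binds Ccl25, made by the epithelium of the small intestine, and is known as the receptor that brings T cells to that site. Ccr7 binds Ccl19 and Ccl21 and brings naive and central memory T cells into lymph nodes and the T cell zones of the spleen. Cxcr3, Cxcr6, Ccr2 and Cx3cr1 are receptors of effector and memory cells, whereas Cxcr5 is best known from B cells and follicular helper T cells and Ccr4 from skin-homing and type 2 helper cells.

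Each level below is the log2 of the processed intensity minus the array's 75th percentile, so that 0 is a probe as bright as that percentile. Differences between groups were taken only within a probe, whereas the sums given for marker lists add linear levels across probes. The 75th percentile lay between 311.9 and 604.7 intensity units, no spot was saturated, and 63.6 to 69.6% of probes were well above background. All 8 CD8 T cell markers were well above background on every array, Cd8a at 42261 and 47350 intensity units in IELs and 49453 and 52019 in SPLs. The arrays lay on 2 slides, each with 1 array of either group. IEL replicate 1 and SPL replicate 2 shared slide 1, and IEL replicate 2 and SPL replicate 1 shared slide 2. The array of IEL replicate 2 was closer to both SPL arrays than to IEL replicate 1 (Pearson's r = 0.946 across 27911 probes, which are not independent). Its r was 0.992 with the SPL array of its own slide and 0.973 with that of the other slide. IEL replicate 1 correlated with r = 0.911 with the SPL array of its own slide and 0.927 with the other. The SPL arrays correlated with r = 0.986. Each receptor's comparison is therefore given with all 4 arrays, by slide, and without either IEL array. Nothing in the labels says whether the samples came from separate sorts, so p-values measure only the spread between these arrays.

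Ccr9, Cxcr6 and Cxcr3 gave levels far above the 75th percentile on all arrays, from 2.53 to 4.81. After scaling, their means were 0.26 to 0.72 higher in IELs on the log2 scale. Before scaling, Cxcr6 and Cxcr3 read lower in IEL replicate 1 than in either SPL sample. Unscaled Ccr9 was higher in both IEL samples than in both SPL samples. Ccr7, Cxcr5 and Cxcr4 were lower in both IEL samples than in both SPL samples, by a small margin in IEL replicate 2. In IEL replicate 1 alone, Ccr7 was 15.5-fold and Cxcr4 18.8-fold below the SPL mean, and Cxcr5 was not well above background. Cx3cr1 and Ccr2 were lower in IEL replicate 1 and near the SPL level in IEL replicate 2. Ccr4 was at the edge of background throughout. With all 4 arrays, none of the 11 receptor probes that were tested passed an adjusted p of 0.05 in limma in either direction (adjusted p from 0.634 to 0.77), and neither did any of the 27936 probes tested (0% higher, 0% lower). At an unadjusted p under 0.05, limma called 1295 probes higher (4.64%) and 308 lower (1.1%), with no receptor among them, and the lowest unadjusted p of a receptor was 0.0523, for Ccr9. The unpaired test of the methods also gave 0 probes after adjustment, from 470 higher and 349 lower before it. An exact permutation test of 2 samples against 2 cannot go below a two-sided p of 0.33.

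Without IEL replicate 2, limma called 7 of the 11 receptor probes lower in IELs, from the 5 genes Ccr7, Cxcr5, Cxcr4, Cx3cr1 and Ccr2, and none higher. Over all 28453 probes tested without that array, 10.3% were called lower and 9.1% higher. This fit has a single IEL sample, which is assumed to vary like the SPL samples. Of the called receptor probes, that of Cxcr5, the first of Cx3cr1 and the second of Ccr2 were not well above background in that sample. They entered the fit through the SPL samples alone. Without IEL replicate 1, no receptor probe was called, as for all probes (0% in either direction). Both IEL samples lay above both SPL samples for 2 receptor probes, of Ccr9 and Cxcr6 (24.4% of 27911 probes with a value on every array), and below them for 4, of Ccr7, Cxcr5 and Cxcr4 (24.6%).

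**Figure D1:**
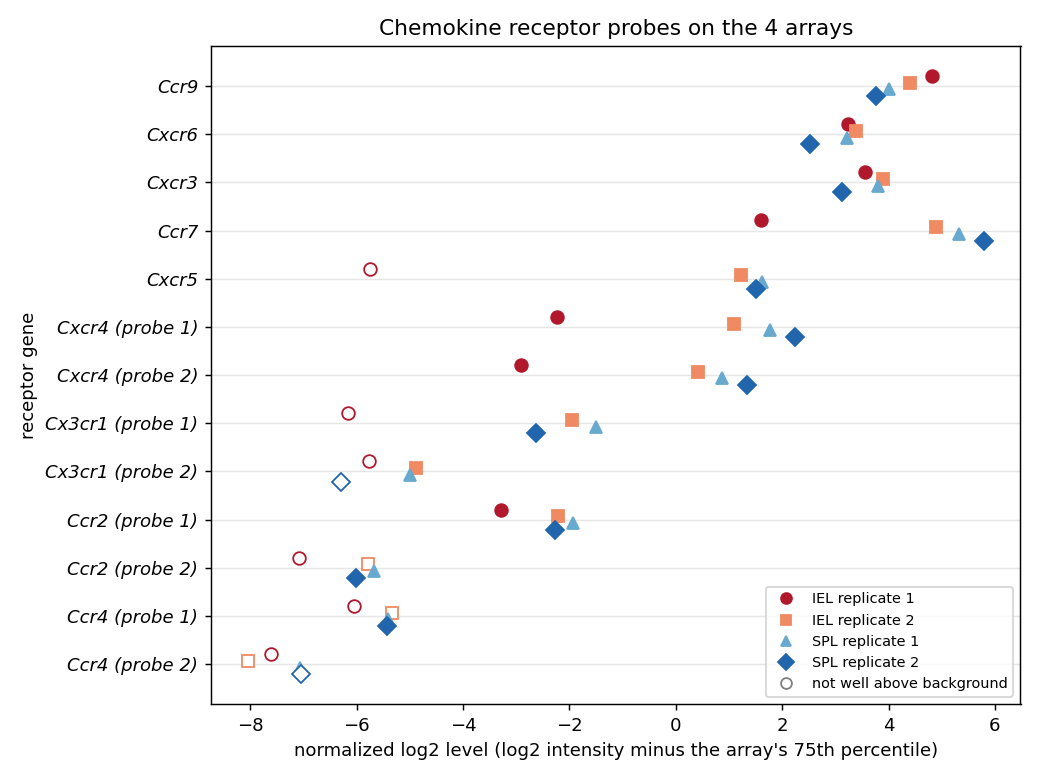
Normalized log2 level of each of the 13 receptor probes (x axis, log2 intensity minus the 75th percentile of the array) on the 4 arrays, with open symbols where a probe was not well above background. The symbols for Ccr9, Cxcr6 and Cxcr3 lie close together, whereas IEL replicate 1 stands far to the left of the other arrays for Ccr7 (1.60 against 4.89 to 5.79), Cxcr5 and Cxcr4.

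Ccr9, the gut-homing receptor (probe at chr9:123690334-123690393, mm9), read 8723 and 9196 intensity units in IEL replicates 1 and 2 and 7648 and 8252 in SPL replicates 1 and 2. As normalized levels these were 4.81 and 4.40 in IELs against 4.0 and 3.77 in SPLs. Both IEL samples were above both SPL samples, and all 4 arrays gave a bright signal, the spleen included. The mean level was 4.60 ± 0.28 (SD, n = 2) in IELs and 3.88 ± 0.16 (SD, n = 2) in SPLs, a difference of 0.72 ± 0.27 (SE) on the log2 scale or 1.65-fold, with an adjusted p of 0.634 in limma and a 95% interval from 0.992-fold to 2.74-fold. On slide 1 the difference was 1.04 and on slide 2 it was 0.41. Of all tested probes, 11.3% differed upwards by as much on slide 1 and 12.9% on slide 2. Ccr9 was 0.92 higher without IEL replicate 2 (adjusted p = 0.0729) and 0.52 higher without IEL replicate 1 (adjusted p = 0.758). Over the 4 arrays the 3 genes with the profile closest to that of Ccr9, out of 18458 compared, were Tubg2, Limk1 and Gpr82, with root mean square differences of 0.016, 0.019 and 0.021 on the log2 scale. Each profile was centred on its own mean, so brightness did not count. Tubg2 was dim (levels from -4.97 to -3.92). Gpr82 (-6.01 to -4.93) was near the lowest signals well above background (-6.35 to -5.68 by array).

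Cxcr6, the receptor for the membrane-bound chemokine Cxcl16 and known from tissue-resident T cells (probe at chr9:123720605-123720664), read 2935 and 4553 units in IELs and 4440 and 3482 in SPLs. The normalized levels were 3.23 and 3.39 in IELs against 3.21 and 2.53 in SPLs. Both IEL samples were above both SPL samples, but SPL replicate 1 was level with IEL replicate 1. The difference of 0.44 ± 0.33 (SE) had an adjusted p of 0.643 in limma and an interval from 0.74-fold to 2.5-fold, and it was 0.71 on slide 1 and 0.18 on slide 2. It was 0.37 without IEL replicate 2 (adjusted p = 0.523) and 0.52 without IEL replicate 1 (adjusted p = 0.886).

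Cxcr3, the receptor for the interferon-induced chemokines Cxcl9, Cxcl10 and Cxcl11 (probe at chrX:98926920-98926979), read 3671 and 6439 units in IELs and 6737 and 5264 in SPLs, or levels of 3.56 and 3.89 against 3.81 and 3.12. The groups overlapped, and the SPL samples lay further apart than the group means did. The difference was 0.26 ± 0.34 (SE), with an adjusted p of 0.77 in limma and an interval from 0.631-fold to 2.26-fold, and it was 0.44 on slide 1 and 0.08 on slide 2. It was 0.09 without IEL replicate 2 (adjusted p = 0.883), without IEL replicate 1 it was 0.42 (adjusted p = 0.929), and it turned to -0.09 without SPL replicate 2.

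Ccr7, the lymph node-homing receptor, with a probe on chromosome 11, read 946 and 12852 units in IEL replicates 1 and 2 and 19251 and 33360 in SPL replicates 1 and 2. Its levels were 1.60 and 4.89 in IELs and 5.33 and 5.79 in SPLs. Both IEL samples were below both SPL samples, and IEL replicate 1 stood far below all others. On the linear scale IEL replicate 1 held 6.36% of the mean SPL level and IEL replicate 2 held 62.0%. The mean level was 3.24 ± 2.32 (SD, n = 2) in IELs and 5.56 ± 0.32 (SD, n = 2) in SPLs, which is 4.97-fold lower (log2 difference -2.31 ± 1.15 SE, adjusted p = 0.634 in limma), with an interval on the log2 scale from -5.39 to 0.77. Without IEL replicate 2, Ccr7 was 15.5-fold lower (adjusted p = 0.00622), and without IEL replicate 1 its difference was -0.67 (adjusted p = 0.741). On slide 1, where the difference was -4.19, only 0.742% of tested probes were as low, and on slide 2, at -0.44, 5.15% were. The genes closest to Ccr7 in profile were Amigo2, Gprc5b and Csf1 (root mean square differences of 0.031, 0.094 and 0.1 over the 4 arrays). Amigo2 and Csf1 were at background in IEL replicate 1, so their likeness to Ccr7 there is not exact.

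Cxcr5, the receptor for the B cell zone chemokine Cxcl13 (probe at chr9:44320071-44320130), read 5.75 units in IEL replicate 1, where it was not well above background, and 1014 in IEL replicate 2, against 1471 and 1722 in SPLs. Its levels were -5.76 and 1.22 in IELs and 1.62 and 1.51 in SPLs. The SPL samples were alike, IEL replicate 2 was slightly below them, and IEL replicate 1 lay far below. Set against the lowest signal well above background on its array, IEL replicate 1 was 146-fold lower than the SPL array of slide 1. This is an approximate size and not a strict minimum, since brighter spots can also fail to be well above background. On slide 2 the difference was -0.40, or 1.31-fold. The fit on all 4 arrays gave -3.83 ± 2.38 (SE, adjusted p = 0.634 in limma), that without IEL replicate 2 gave -7.32 (adjusted p = 0.00385), and that without IEL replicate 1 gave -0.34 (adjusted p = 0.886). The first 2 of these rest on a reading at background, so their size is not exact.

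B cell markers moved with these receptors, although the sort gate on CD3, CD8 and TCRβ should leave B cells out. Of 8 such markers, 7 were tested and all 7 had lower means in IELs, with a median difference of -2.00 (-3.58 on slide 1 and -0.42 on slide 2), beside a median of 0.00 over all tested probes. All 7 were called lower without IEL replicate 2. Ms4a1, which encodes CD20, read 4.40 units in IEL replicate 1 and 2101 in IEL replicate 2, against 2899 and 3197 in SPLs. Summed on the linear scale, relative to each array's 75th percentile, the 8 markers stood at 3.64 and 21.3 in IELs and 27.5 and 20.9 in SPLs. Ms4a1, Fcer2a and Pax5 were not well above background in IEL replicate 1, and the same array held the lowest Cxcr5 and Ccr7. The part of B cells in the Cxcr5, Ccr7 and Cxcr4 differences was not tested. In RNA from sorted cells in bulk, fewer cells of a type and less RNA per cell cannot be told apart.

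Cxcr4, the receptor for Cxcl12 that retains cells in bone marrow and is expressed by most lymphocytes, had 2 probes that did not overlap. Probe 1 (chr1:130485079-130485138, mm9, minus strand) read 66.7 and 933 units in IELs and 1636 and 2867 in SPLs. Probe 2 (chr1:130485659-130485718) read 41.1 and 584 units in IELs and 879 and 1519 in SPLs. On both, all IEL values were below all SPL values and IEL replicate 1 was far the lowest. Probe 2 is shown because its sequence can be read through without a stop in any forward frame and it gave the same picture as probe 1:
Cxcr4 probe 2: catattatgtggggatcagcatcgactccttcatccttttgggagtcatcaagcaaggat
Probe 1 differed by -2.57 ± 1.16 (SE), or 5.94-fold lower in IELs, and probe 2 by -2.35 ± 1.17 (SE), each with an adjusted p of 0.634 in limma. Without IEL replicate 2 they differed by -4.23 (adjusted p = 0.0057) and -4.02 (adjusted p = 0.00607), and without IEL replicate 1 by -0.91 (adjusted p = 0.687) and -0.68 (adjusted p = 0.737). Slide 1 gave -4.47 for probe 1 and -4.25 for probe 2, against -0.67 and -0.45 from slide 2. IEL replicate 1 held 5.24% and IEL replicate 2 52.7% of the mean SPL level of probe 1. The slide 2 difference of probe 1 was the lowest of the receptors on that slide, and 1.98% of tested probes were as low there.

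Cx3cr1, the fractalkine receptor of monocytes and of cytotoxic effector T cells, had 2 probes that disagreed. Probe 1 (chr9:119959018-119959077, mm9) read 4.34 units in IEL replicate 1, not well above background, and 112 in IEL replicate 2, against 170 and 98.1 in SPLs. IEL replicate 2 lay between the SPL samples, so that the groups overlapped. The fit gave -2.00 ± 1.49 (SE, adjusted p = 0.645 in limma), -4.11 without IEL replicate 2 (adjusted p = 0.0145) and 0.11 without IEL replicate 1 (adjusted p = 0.991), where the first 2 values rest on a reading at background. The slide 2 difference was -0.46. On slide 1, IEL replicate 1 was 8.32-fold lower than the SPL array by the same approximate measure as for Cxcr5. Probe 2 (chr9:119960610-119960669) was dim, reading 5.72 and 14.6 units in IELs and 14.9 and 7.73 in SPLs, and was well above background only on the arrays of slide 2, so that it was not tested. It is shown as the probe that did not follow the other:
Cx3cr1 probe 2: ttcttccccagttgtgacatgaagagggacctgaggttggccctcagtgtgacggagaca

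Ccr2, the receptor for Ccl2 that brings inflammatory monocytes and effector T cells into tissue, read 31.8 and 94.2 units in IELs and 125 and 125 in SPLs on its brighter probe (chr9:124022948-124023007). The normalized levels were -3.29 and -2.21 in IELs and -1.94 and -2.27 in SPLs. IEL replicate 2 lay just above SPL replicate 2, so that the groups overlapped by a narrow margin. The difference was -0.65 ± 0.44 (SE, adjusted p = 0.637 in limma), or -1.19 without IEL replicate 2 (adjusted p = 0.0494) and -0.10 without IEL replicate 1 (adjusted p = 0.983). It was -1.02 on slide 1 and -0.27 on slide 2. Its second probe read at most 9.38 units on any array and was not well above background in either IEL sample.

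Most monocyte and macrophage markers were, like the first probe of Cx3cr1 and Ccr2, low in IEL replicate 1 alone. Against the SPL mean, their median was -4.23 in IEL replicate 1 and 0.22 in IEL replicate 2. Only Itgam had both IEL samples below both SPL samples. All 9 markers were tested, 7 had lower means in IELs, and their median difference was -1.99, with -3.67 on slide 1 and -0.30 on slide 2. Without IEL replicate 2, 5 were called lower and none higher. Their summed level was 52.3 and 159 in IELs and 197 and 157 in SPLs. Lyz2 (47.3 of the sum in IEL replicate 1, difference 0.07) and Ly6c2 carried most of it, and without them the other 7 came to 1.01 and 7.40 in IELs and 9.57 and 3.93 in SPLs. C1qa, a complement gene of macrophages, read 6.68 units in IEL replicate 1 and 557 in IEL replicate 2, against 757 and 352 in SPLs. Natural killer cell markers summed to 2.41 and 3.29 in IELs and to 4.06 and 3.12 in SPLs, and 2 of 4 were called lower without IEL replicate 2. The part of these cells in the Cx3cr1 and Ccr2 differences was not tested.

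Ccr4, the receptor for Ccl17 and Ccl22, had 2 probes that shared 30 bases. The brighter one (chr9:114400791-114400850) read 4.72 and 10.8 units in IELs and 11.2 and 14.0 in SPLs and was well above background in the SPL samples alone. IEL replicate 2 lay slightly above both SPL samples on the log2 scale and IEL replicate 1 below them. The difference was -0.62 on slide 1 and 0.09 on slide 2, with an adjusted p of 0.754 in limma over all arrays, and it was -0.62 without IEL replicate 2 (adjusted p = 0.142) and 0.10 without IEL replicate 1 (adjusted p = 0.982). The other probe was nowhere well above background. A Ccr4 difference was not detectable at these signal levels.

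The slides gave the same direction for 10 of the 11 tested receptor probes but different sizes. On slide 1 the differences ran from -7.27 to 1.04 and on slide 2 from -0.67 to 0.41. The difference on slide 1 was the larger for all 11 tested receptor probes and for 80.9% of all tested probes. The median absolute difference of the receptor probes was 1.06 on slide 1 and 0.40 on slide 2, beside 0.51 and 0.17 over all tested probes. IEL samples lay a median of 1.28 apart on the receptor probes and SPL samples 0.45, beside 0.46 and 0.23 over all tested probes. On slide 1, 7 receptor probes were at least 2-fold lower in IELs (13.7% of 27911 probes) and 1, Ccr9, was at least 2-fold higher (11.8%). At least 8-fold lower were 5 receptor probes, of Ccr7, Cxcr5, Cxcr4 and Cx3cr1 (2.06%), and none was at least 8-fold higher (2.03%). Among the probes counted as lower, that of Cxcr5, the first of Cx3cr1 and the second of Ccr2 were not well above background in IEL replicate 1. They were tested through the SPL samples alone, as was Ccr4, so their slide 1 sizes are not exact. For the second probe of Ccr2, a 2-fold difference was therefore not shown. On slide 2 no receptor probe differed 2-fold in either direction (0.731% of probes lower, 2.46% higher), so that none did on both slides (0.312% lower, 1.79% higher). Slide and sample cannot be told apart, since each slide held 1 sample of either group.

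**Figure D2:**
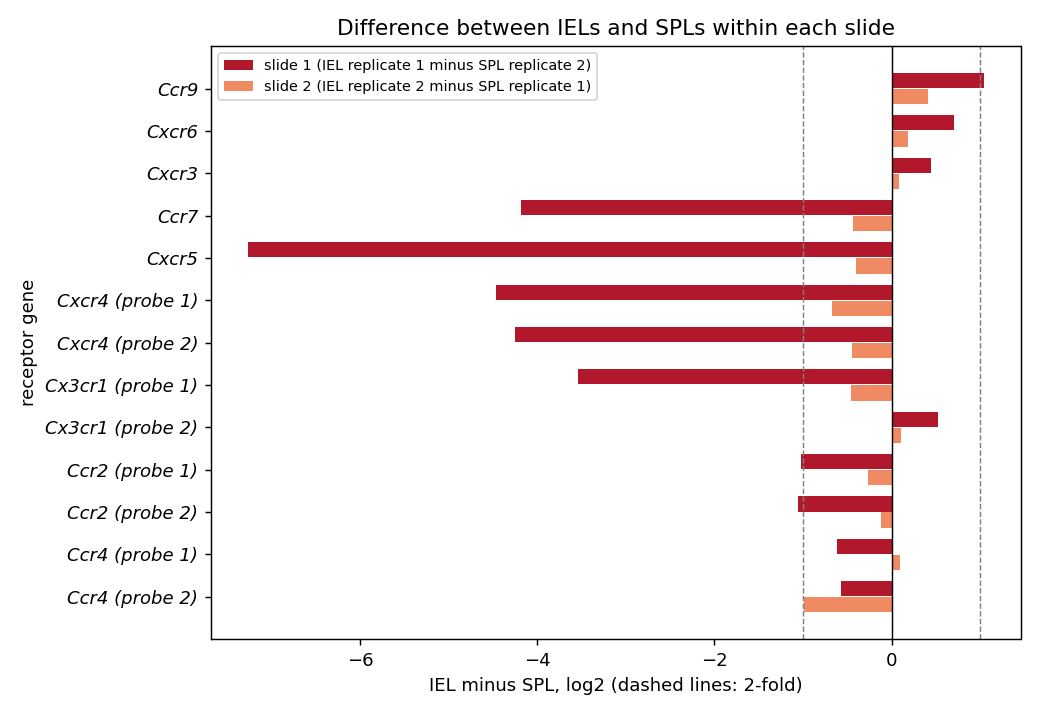
Difference between IELs and SPLs (x axis, log2, with dashed lines at 2-fold) for each receptor probe on slide 1 (dark bars) and slide 2 (light bars), including the dim probes of Cx3cr1, Ccr2 and Ccr4. The Cxcr5 bar of slide 1 reaches -7.27 with IEL replicate 1 not well above background, whereas no tested probe passes 2-fold on slide 2.

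**Figure D3:**
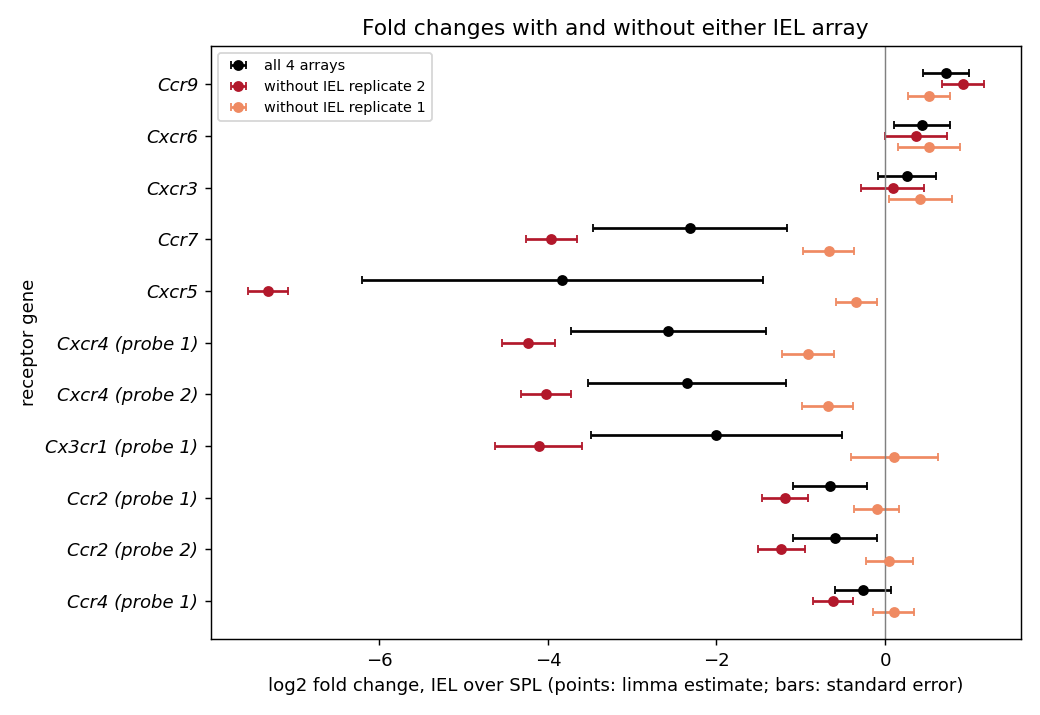
Log2 fold change of IELs over SPLs (x axis) for the 11 tested receptor probes from limma, with bars for the standard error, using all 4 arrays or leaving out either IEL array. Ccr7, Cxcr5 and Cxcr4 sit near the centre of wide bars with all arrays, between -3.96 and -0.67 for Ccr7 when either IEL array is left out.

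Of the 17 listed ligands of these receptors, 15 were on the array by symbol and 8 were tested. Of these 8, 5 had higher and 3 lower means in IELs, with none called on all 4 arrays, and the median difference was 0.49. Ccl25, the ligand of Ccr9, read 528 and 392 units in IELs and 359 and 537 in SPLs, and was 0.60 higher after scaling (adjusted p = 0.634 in limma). Cxcl9 (adjusted p = 0.00542) and Ccl2 (adjusted p = 0.00607) were called lower without IEL replicate 2, with readings of 3.85 and 4.97 units in IEL replicate 1 that were at background, so that no size is given. In the same fit Ccl17 was higher by 1.47. Cx3cl1, the ligand of Cx3cr1, was not among the 8 tested on all arrays and entered that fit through IEL replicate 1 alone. It read 13.5 units there and 5.7 and 4.06 in SPLs, where it was at background, so that no size is given.

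Of 14 other chemokine receptors, 9 were tested, of which 6 had lower means in IELs. None was called on all 4 arrays. Of these 6, Ccr6, Ackr2, Ccr3 and Ccrl2 differed by -1.34, -2.04, -1.51 and -0.77 without IEL replicate 2. Over the 4 arrays the groups overlapped for Ccr6, Ackr2 and Ccr3. Cxcr2 and Ackr3 were also lower without that array, but read 2.05 and 4.03 units in IEL replicate 1. These readings were not well above background, so that no size is given.

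All 23 genes of chemokine receptor signalling were tested, 9 with higher and 14 with lower means in IELs and a median difference of -0.08. Rgs1, a regulator that shortens G protein signals from chemokine receptors, was the only gene on the ligand, receptor and signalling lists at least 2-fold apart in the same direction on both slides. It read 60655 and 23935 units in IELs and 11573 and 4285 in SPLs, with both IEL samples above both SPL samples. The difference was 2.98 ± 0.89 (SE, adjusted p = 0.634 in limma), 4.78 on slide 1 and 1.19 on slide 2, and 3.89 without IEL replicate 2 (adjusted p = 0.0341). Dock2, the exchange factor that activates Rac during lymphocyte migration and named here after its values were seen, differed about equally on both slides, by -0.89 and -0.93. Its adjusted p was 0.634 with all arrays and 0.0741 without IEL replicate 2. Gng2, Grk5 and Rgs1 were called higher and Pik3r5 and Rgs19 lower once that sample was left out.

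The median difference was positive for epithelial cell markers and negative for B cell, monocyte and natural killer cell ones. Among the latter, Lyz2, Cd68 and the natural killer cell marker Klrb1c nevertheless had higher means in IELs, by 0.07, 0.26 and 0.30. All 8 epithelial markers had higher levels in both IEL samples than in both SPL samples. Their median difference was 3.56 (5.60 on slide 1 and 1.28 on slide 2), and their summed level was 32.1 and 7.81 in IELs against 4.27 and 2.30 in SPLs. Without IEL replicate 2, 6 were called higher. Krt8, a keratin of simple epithelia, read 2071 and 305 units in IELs and 121 and 24.3 in SPLs. Dendritic cell markers summed to 9.75 and 4.95 in IELs and to 3.75 and 2.11 in SPLs, with a median difference of 0.29. Itgax carried most of that sum, and without it the others came to 1.07 and 1.18 in IELs and 1.02 and 0.888 in SPLs. The CD4 T cell markers summed to 0.592 and 0.448 against 0.412 and 0.281. The part of epithelial or dendritic cells in the Ccr9 and Cxcr6 differences was not tested. The CD8 T cell markers had a median difference of 0.05 and summed to 563 and 614 in IELs and to 624 and 613 in SPLs, although 1 of the 8, Cd2, was called lower without IEL replicate 2.

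**Figure D4:**
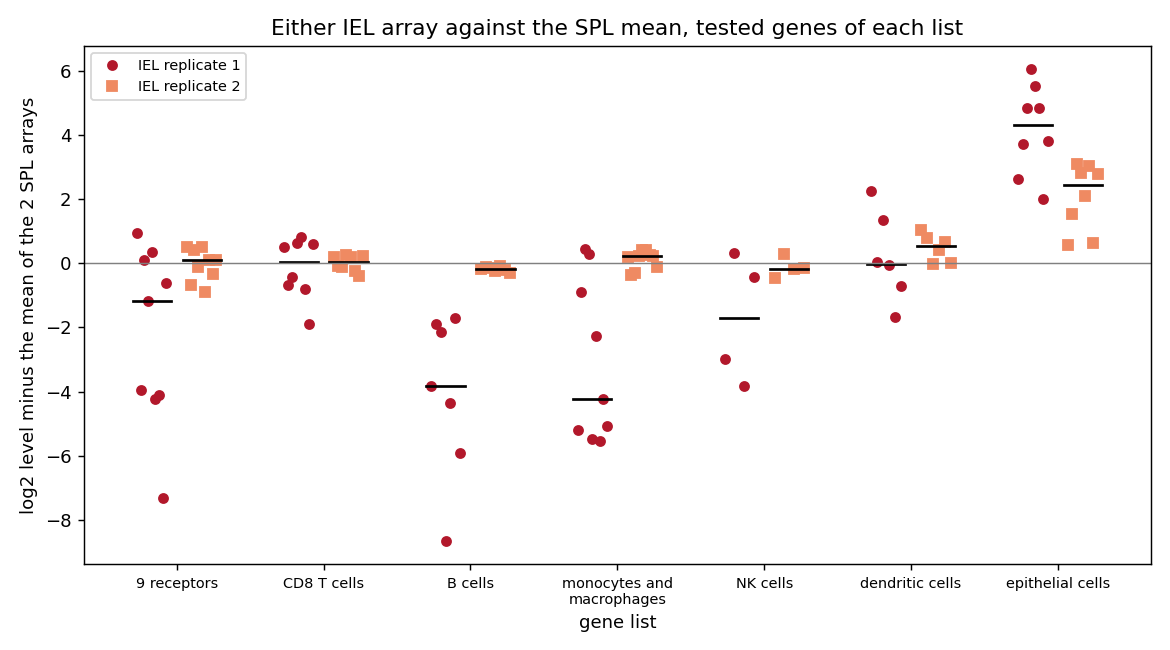
Level of each tested gene in either IEL array minus its mean over the SPL arrays (y axis, log2), grouped by gene list (x axis), with a bar at each median. For IEL replicate 1 the medians were -1.19 for the receptors, -3.82 for B cell markers and 4.32 for epithelial markers, against 0.10, -0.17 and 2.44 for IEL replicate 2.

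Promoter sequence was at hand for 7 of the 9 receptors (all but Ccr7 and Cxcr5), from RefSeq on GRCm38.p6, as 300 bases from 250 before the start to 50 after it. The promoters of Ccr9, higher in both IEL samples, and Cxcr4, lower in both, are shown up to the start, each with capitals on a CACCC match, a core letter run of KLF factors.
Ccr9 (chr9:123766961-123767210, plus strand): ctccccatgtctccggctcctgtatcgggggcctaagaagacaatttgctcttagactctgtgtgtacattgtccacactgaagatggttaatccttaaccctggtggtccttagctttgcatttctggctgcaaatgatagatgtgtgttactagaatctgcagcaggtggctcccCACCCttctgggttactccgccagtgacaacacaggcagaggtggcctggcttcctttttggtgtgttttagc
Cxcr4 (chr1:128592300-128592549, minus strand): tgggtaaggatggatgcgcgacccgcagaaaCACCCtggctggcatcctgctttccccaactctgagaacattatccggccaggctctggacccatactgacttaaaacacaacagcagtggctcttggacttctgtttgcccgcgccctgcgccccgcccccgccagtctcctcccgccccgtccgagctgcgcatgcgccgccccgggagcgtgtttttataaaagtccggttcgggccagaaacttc
The 300-base Cxcr4 window held 20 CpG dinucleotides and that of Ccr9 held 4, beside a median of 7 over 32851 promoters. Searched on both strands, CACCC was found in 4 of the 7 receptor promoters and in 57.5% of all promoters. The RUNX letters TGTGGT were found in 3 of 7 (16.8% of all), the T-box letters TCACAC in 1 (14.5%) and the TCF and LEF letters CTTTGA in 2 (16%).

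Of the 9 genes, 6 lay on chromosome 9, and of these the probes of Ccr9, Cxcr6 and Ccr2 lay within 333 kb of each other there (mm9). Ccr9 and Cxcr6 had higher means in IELs and Ccr2 a lower mean. None of these differences was called on all 4 arrays (adjusted p of 0.634, 0.643 and 0.637 in limma). A difference in direction inside this cluster was therefore not shown.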

How the data were processed

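Members and gene lists were chosen with earlier results of these data known. Total RNA of 4 samples (2 CD8αβ+ IELs and 2 CD8αβ+ SPLs) was hybridised to 1-colour Agilent arrays. The deposited scanner files hold processed intensity per spot, already background-subtracted by Feature Extraction (version 10.7.1.1 in the submitters' processing notes, 10.7.3.1 in the file headers). The authors' series table, deposited as log2 values, was an alternative. The methods of the study name another array platform than these files show. Of 45018 spots per array, 43379 were not controls. Spots marked as outliers (98 to 179 per array) were left out, spots of a probe were averaged, and levels are log2 intensity minus the 75th percentile of the array's non-control spots. The 27936 probes well above background in both samples of at least 1 group were tested in limma 3.58.1 (R 4.3.3), IELs against SPLs over all 4 arrays, with Benjamini-Hochberg adjustment over all probes. The number of arrays limits the precision.

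Where a gene had several probes, the tested probe with the highest mean stood for it. A dim reading was set against the lowest signal well above background on its array. Some brighter readings were not well above background, such as Ccr4 in IEL replicate 2 (-5.33, beside a lowest of -5.87). The resulting fold is therefore not a strict minimum. Genes were named by rule: all members, genes of the ligand, receptor and signalling lists at least 2-fold apart on both slides, the defining markers, and the 3 genes closest to Ccr9 and to Ccr7 in profile; ligands and others were also named where a count was small. The accession of all 13 member probes matched the same symbol in RefSeq. Probe coordinates are those in the files (mm9). Alternatives covered scaling, background correction, filters, the test, blocks for slide and replicate number, and each sample left out. The code was tested on simulated data. Same-numbered samples share only a number: their deviations from the group means correlated at -0.025.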

Additional observations from a re-analysis of the deposited data

How the results depend on the processing

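Leaving out each sample in turn gave 0 to 5521 probes past the threshold and 0 to 7 receptor probes, in both cases above 0 only without IEL replicate 2 (2588 higher and 2933 lower over all probes); every other of the 17 alternatives gave 0. Of 143 receptor fold changes under these alternatives, 134 kept their direction and side of the threshold, 5 (Ccr7, Cxcr5, Cxcr4, Cx3cr1 and Ccr2) passed it without IEL replicate 2, and 4 reversed. Cxcr3 was -0.09 without SPL replicate 2, Cx3cr1 was 0.11 without IEL replicate 1, and Ccr4 was 0.10 without IEL replicate 1 and 0.36 under normexp fitted without spots far below local background. The cause was not tested. Over samples left out, the difference ran from -3.96 to -0.67 for Ccr7, from -7.32 to -0.34 for Cxcr5, from -4.23 to -0.91 for Cxcr4, from 0.52 to 0.92 for Ccr9, from -0.09 to 0.60 for Cxcr3, from -4.11 to 0.11 for Cx3cr1 and from -0.62 to 0.10 for Ccr4. Normexp moved the median of all probes to -0.38, or to 0.15 without spots far below local background, and no filter moved it to 0.15. Relative to that median, Ccr9 was 1.55 and 0.54 higher and Ccr7 1.31 and 2.44 lower under the 2 normexp settings. Before that median is taken off, the same settings moved Cxcr5 from -3.83 to -1.02 and -2.07, Cx3cr1 from -2.00 to -0.66 and -0.44, Cxcr4 from -2.57 to -1.37 and -2.22, Ccr2 from -0.65 to -0.66 and -0.14, Cxcr6 from 0.44 to 0.86 and 0.42, and Cxcr3 from 0.26 to 0.71 and 0.24. With the replicate number as a block, 0 probes passed the threshold and the receptors' adjusted p ran from 0.554 to 0.901, and with the slide as a block from 0.597 to 0.734, so that neither changed a call. Signal over background limits Ccr4, the second probes of Cx3cr1 and Ccr2, and Cxcr5 and the first probe of Cx3cr1 in IEL replicate 1.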

Other observations

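Ccr1, a receptor of myeloid cells outside the list above, had a single spot that read 1.74 and 1.83 units in IELs and 1.67 and 59764 in SPL replicates 1 and 2, so that SPL replicate 2 alone carried the signal and the probe was not tested.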
